A study of Mus musculus with 3 samples.

Results

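The genes described here are the 9 genes of cone phototransduction, the set of proteins with which cone photoreceptors turn light into an electrical signal. They are *Opn1sw* (ENSMUSG00000058831), *Opn1mw* (ENSMUSG00000031394), *Arr3* (ENSMUSG00000060890), *Gnat2* (ENSMUSG00000009108), *Gnb3* (ENSMUSG00000023439), *Gngt2* (ENSMUSG00000038811), *Pde6c* (ENSMUSG00000024992), *Pde6h* (ENSMUSG00000064330) and *Cnga3* (ENSMUSG00000026114), taken by name from a table of 33696 genes. Their levels were followed in cones, rods, bipolar cells and neurogenic precursors of mouse retinas at postnatal day 6, with endothelial cells (ECs) as a class that should lack phototransduction. Of 3 droplet libraries, all from C57BL/6 mice, the first came from wild-type (WT) animals and the second from *Tspan12* knockout animals (*Tspan12* KO). The third came from *Ctnnb1* loxp/loxp animals carrying the inducible recombinase *Pdgfb*-iCreER, whose promoter is active in endothelium, with tamoxifen given in the days after birth (*Ctnnb1* cKO). Each library was a pool of retinas from several mice of that genotype, and the WT animals came from other litters than the knockouts. Cells were enriched with magnetic beads against CD31 and CD11b, so photoreceptors entered as cells that the enrichment left behind. There was 1 library per genotype, and therefore no replicate check, no p-value and no way to tell genotype from library.

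In a cone, light changes the shape of an opsin, which activates the G protein transducin. Transducin in turn releases a phosphodiesterase from its inhibitory subunit. The fall in cyclic GMP closes a cation channel, and arrestin ends the signal by binding the activated opsin. Rods use a parallel set of proteins from separate genes, so the cone set is often read as a sign of cone identity. *Opn1sw* encodes the short-wavelength opsin, which mouse cones make early in development, and *Opn1mw* the medium-wavelength opsin, which they make later. *Gnat2*, *Gnb3* and *Gngt2* encode the alpha, beta and gamma subunits of cone transducin, and the beta subunit is also used by bipolar cells that respond to light onset. *Pde6c* is the catalytic and *Pde6h* the inhibitory subunit of the cone phosphodiesterase, *Cnga3* a subunit of the cone channel and *Arr3* cone arrestin.

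Promoter sequence was looked up for the members because several of them were far higher in cones than in the other classes compared. RefSeq promoters on GRCm38.p6 were found for 6 of 9 members: *Opn1sw*, *Opn1mw*, *Arr3*, *Gnat2*, *Pde6h* and *Cnga3*. The 240 bases that run from 250 to 11 bases before the start are printed for both opsins, which lay far apart in these data, and for arrestin. Capitals mark TAATCT, a variant of the TAATCC core bound by the photoreceptor factor CRX, and AGGTCA or its reverse TGACCT, the core bound by many nuclear receptors. The *Opn1sw* window is chr6:29380524-29380763 on the minus strand, the *Opn1mw* window chrX:74127216-74127455 on the plus strand and the *Arr3* window chrX:100605247-100605486 on the plus strand.
Opn1sw: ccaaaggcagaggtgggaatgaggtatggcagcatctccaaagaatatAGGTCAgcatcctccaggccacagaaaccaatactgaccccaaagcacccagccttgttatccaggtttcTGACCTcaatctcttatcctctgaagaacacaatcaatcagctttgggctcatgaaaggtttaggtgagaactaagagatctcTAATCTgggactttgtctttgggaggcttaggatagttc
Opn1mw: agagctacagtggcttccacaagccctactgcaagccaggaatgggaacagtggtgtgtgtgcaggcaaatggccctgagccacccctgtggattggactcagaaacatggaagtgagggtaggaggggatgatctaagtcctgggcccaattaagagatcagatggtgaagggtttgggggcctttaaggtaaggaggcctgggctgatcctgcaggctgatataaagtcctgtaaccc
Arr3: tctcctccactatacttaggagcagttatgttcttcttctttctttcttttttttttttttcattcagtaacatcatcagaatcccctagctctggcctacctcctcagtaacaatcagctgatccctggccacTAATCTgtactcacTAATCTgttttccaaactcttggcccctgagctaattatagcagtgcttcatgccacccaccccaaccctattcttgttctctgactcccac
In *Opn1sw*, TAATCT stood 49 bases before the start, and the nuclear receptor core stood 202 and 132 bases before it. *Arr3* held TAATCT at 116 and 102 bases before its start, and *Gnat2* held TAATCC on the reverse strand, as GGATTA, at 19 bases before its start. None of these letters was in the windows of *Opn1mw*, *Pde6h* or *Cnga3*. TAATCC or TAATCT on either strand was thus present for 3 of 6 members, against 12.5% of 32851 promoters of the same length, of which 6.05% held TAATCC, 7.13% TAATCT and 13.5% AGGTCA. A match in a window is a description of its letters and does not show a binding site.

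The 3 libraries held 9951, 14426 and 9151 barcodes with 37008362 to 137114957 unique molecular identifiers (UMIs, each marking a captured transcript), and 8989 WT, 12732 *Tspan12* KO and 8451 *Ctnnb1* cKO cells were kept. Between 21 and 37 barcodes were shared by any pair of libraries. The labels call the cells vascular, but ECs by their markers numbered 538, 282 and 2705 in WT, *Tspan12* KO and *Ctnnb1* cKO, and the largest named class was rods in the first 2 libraries. *Tspan12* in ECs stood at 95.9, 83.9 and 40.1 CPM (UMIs of the gene scaled to a fixed total over the cells of the class) in the same order, and *Ctnnb1* at 523, 616 and 444 CPM. Tags from the 3′ end can lie outside the deleted part of either gene, so these levels check nothing. Cells were clustered without the 9 members, and clusters were named from other marker genes. A name stands for cells like that class.

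The cone cluster met the label: 10 of 11 cone markers outside the member list were enriched in it, with *Guca1a*, *Slc24a2*, *Kcne2* and *Tafa3* among its 10 leading genes. It held 67 WT cells, or 0.745% of the cells kept (0.578 to 0.946%, exact Clopper-Pearson interval at 95%). In *Tspan12* KO it held 276 cells, or 2.17% (1.92 to 2.44%), and in *Ctnnb1* cKO 4 cells, or 0.0473% (0.0129 to 0.121%). A marker gate, which took cells with UMIs of 2 or more cone markers outside the member list and more of them than of any other class, found 189, 467 and 39 cells in WT, *Tspan12* KO and *Ctnnb1* cKO, of which 41, 136 and 2 lay in the cone cluster. The number of cones therefore depended on how they were called. Of the cells named cones or rods, cones were 4.32%, 6.07% and 0.222% in the same order. Unnamed clusters that carried photoreceptor factors such as *Crx* are left out of these shares. They were clusters 1, 2, 9 and 14, with 1094, 1229, 865 and 52 WT and 1301, 1176, 518 and 816 *Tspan12* KO cells. These shares are set by the bead enrichment as well as by the retina, and fewer cones cannot be told apart from fewer cones carried through it. Cone cells were deep, with median UMIs of 13964, 8593 and 2580 and a range in WT from 772 to 110014. The cluster also carried rod transcripts, among them *Nrl* and *Nr2e3*, factors of rod fate, at 492 and 655 and at 1369 and 1252 CPM in WT and *Tspan12* KO. By transcripts, cones and rods were thus not fully apart. All intervals here cover counting error only.

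The opsins were at opposite ends of detection. *Opn1sw* was found in 59 of 67 WT cones, 234 of 276 *Tspan12* KO cones and 4 of 4 *Ctnnb1* cKO cones. The level of this opsin was 1160 CPM (1102 to 1220, exact Poisson) in WT cones, 843 CPM (815 to 873) in cones of *Tspan12* KO and, from 16 UMIs, 677 CPM (387 to 1099) in cones of *Ctnnb1* cKO. A WT cone held a median of 20 *Opn1sw* UMIs and at most 94, a *Tspan12* KO cone a median of 6 and at most 76. These counts per cell were not matched for depth, which was lower in *Tspan12* KO cones. *Opn1mw*, in contrast, gave 4 UMIs in 3 WT cones and 7 UMIs in 4 *Tspan12* KO cones. Every one of these 7 cells also carried *Opn1sw*. Levels of *Opn1mw* were 3.06 CPM (0.833 to 7.83) in WT and 1.81 CPM (0.729 to 3.74) in *Tspan12* KO cones, and 0 UMIs in the 4 *Ctnnb1* cKO cones allow up to 127 CPM.

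The transducin subunits were all present in cones. *Gnat2* was at 212 CPM (188 to 238) in WT and 112 CPM (101 to 123) in *Tspan12* KO cones. *Gnb3* was at 1118 CPM (1061 to 1177) and 867 CPM (838 to 897), and *Gngt2* at 2004 CPM (1928 to 2082) and 1724 CPM (1682 to 1766). For each of the 3 subunits the intervals of the 2 libraries did not overlap and the WT level was the higher. The share of all genes in cones without such overlap is not given. The 4 *Ctnnb1* cKO cones gave 3, 15 and 35 UMIs of the 3 subunits, or 127, 635 and 1481 CPM. Their intervals overlapped those of both other libraries, except that *Gnb3* (355 to 1047) lay below WT.

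The phosphodiesterase subunits differed less between the libraries. *Pde6c* was at 145 CPM (125 to 167) in WT and 127 CPM (116 to 139) in *Tspan12* KO cones, with overlapping intervals. *Pde6h* was at 1664 CPM (1595 to 1735) and 1573 CPM (1534 to 1613), which also overlapped. The *Ctnnb1* cKO cones gave 2 UMIs of *Pde6c* and 9 of *Pde6h*. *Cnga3* was at 37.5 CPM (27.7 to 49.5) in WT and 20.7 CPM (16.4 to 25.8) in *Tspan12* KO cones, without overlap, and at 0 UMIs in *Ctnnb1* cKO. *Arr3* was at 191 CPM (168 to 216), 155 CPM (142 to 168) and, from 11 UMIs, 465 CPM (232 to 833). A WT cone held UMIs of a median of 7 members, a *Tspan12* KO cone of 6, and the 4 *Ctnnb1* cKO cones of 5. These medians were not matched for depth, which fell in the same order.

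**Figure D1:**
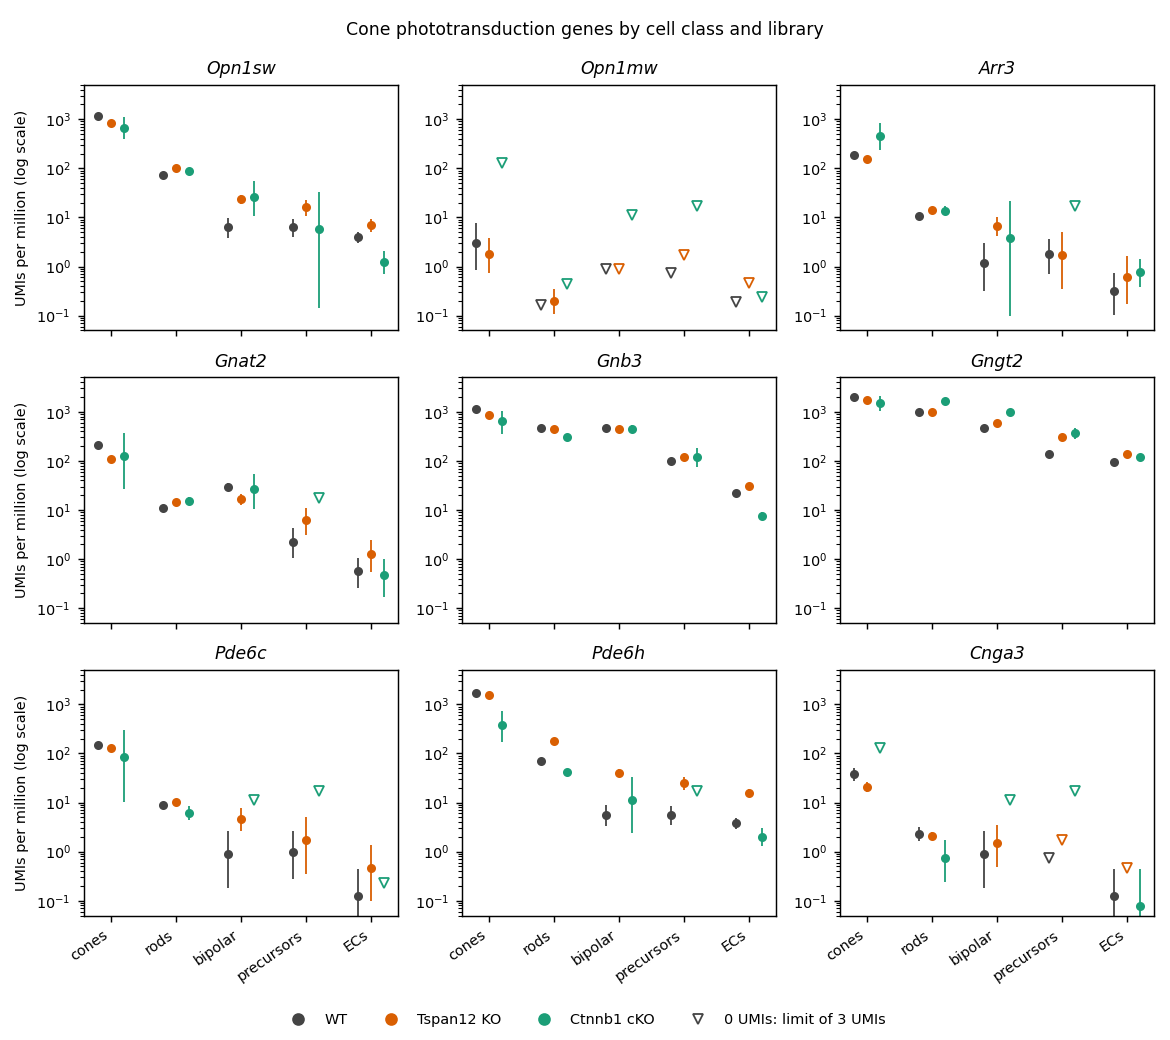
Level of each of the 9 members (CPM, log axis) in cones, rods, bipolar cells, neurogenic precursors and ECs, with 1 point per library and exact Poisson intervals. The cone point is the highest for every member in WT and *Tspan12* KO, while *Gnb3* and *Gngt2* stay above 300 CPM in rods as well.

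Among cones, rods, bipolar cells, precursors and ECs, all 9 members were highest in cones in both WT and *Tspan12* KO, but by very different margins. For *Opn1mw* in WT the cone interval overlapped that of the next class. An unnamed cluster described below held *Gngt2* above the cone level in both libraries and lies outside these classes. For 6 members the WT cone level was between 15.7 and 23.2 times the rod level: *Opn1sw* 15.7, *Arr3* 17.8, *Gnat2* 19.4, *Pde6c* 16.5, *Pde6h* 23.2 and *Cnga3* 16.1 times. *Gnb3* and *Gngt2* were only 2.40 and 1.98 times as high in WT cones as in rods. In *Tspan12* KO the same 6 members were 7.58 to 12.2 times as high in cones, *Gnb3* 1.97 times and *Gngt2* 1.72 times. These rod levels include a rod cluster of high UMIs. It held 6230 of the 6655 *Opn1sw* UMIs of *Tspan12* KO rods and 1008 of the 1339 of WT rods. The margins therefore depend on that cluster, and margins without it are not given. *Opn1mw* was at 0 UMIs in WT rods, and the 13 UMIs in *Tspan12* KO rods all lay in the rod cluster of high UMIs described below.

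The order of the lower classes depended on the gene. For *Gnb3*, bipolar cells (476 and 449 CPM in WT and *Tspan12* KO) and rods (466 and 440 CPM) had overlapping intervals in both libraries, followed by precursors (101 and 121 CPM) and ECs (22.0 and 30.3 CPM). For *Gngt2* the order was cones, rods (1011 and 1002 CPM), bipolar cells (479 and 600 CPM), precursors (141 and 310 CPM) and ECs (92.8 and 137 CPM). *Gnat2* was higher in WT bipolar cells, at 29.5 CPM, than in WT rods, at 10.9 CPM, or 2.70 times as high. In *Tspan12* KO, *Gnat2* in bipolar cells (16.7 CPM) and rods (14.7 CPM) overlapped. In *Ctnnb1* cKO they overlapped too, at 26.6 CPM from 7 UMIs and 15.3 CPM. Both bipolar clusters carried it in WT, at 27.9 CPM in the cluster led by *Isl1* and *Cntnap5a* and at 38.2 CPM in the cluster led by *Gsg1* and *Grik1*. The other members were low in bipolar cells: in WT, *Opn1sw* at 6.25, *Pde6h* at 5.66, *Arr3* at 1.19, *Pde6c* at 0.893 and *Cnga3* at 0.893 CPM.

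Depth differed between classes, so shares of cells were compared after each cell was thinned to 1000 UMIs and shallower cells were left out. This left 65 WT cones, 2 having been too shallow, and 234 *Tspan12* KO cones, 42 having been too shallow. *Opn1sw* was then found in 61.5% of WT cones (48.6 to 73.3%) and 54.7% of *Tspan12* KO cones (48.1 to 61.2%), against 88.1% and 84.8% without thinning. In rods the share was 3.15%, 5.13% and 4.78% in WT, *Tspan12* KO and *Ctnnb1* cKO, and in ECs, which should lack the gene, 0.569%, 1.46% and 0.163%. The rod share stood above that of ECs in all 3 libraries. Median UMIs before thinning were 3930, 4035 and 1585 in rods and 15785, 15007.5 and 3347 in ECs. In precursors *Opn1sw* was in 0.291% of WT and 1.35% of *Tspan12* KO cells, and *Pde6h* in 0.436% and 2.70%, beside 0.569% and 2.55% of ECs with overlapping intervals. By level, *Tspan12* KO precursors stood above the ECs of that library, with a log2 ratio of 1.18 (0.44 to 1.89) for *Opn1sw* and 0.63 (0.08 to 1.16) for *Pde6h*. In WT the same ratios were 0.68 (-0.05 to 1.37) and 0.52 (-0.25 to 1.24). No order of precursors and ECs is read from the shares.

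**Figure D2:**
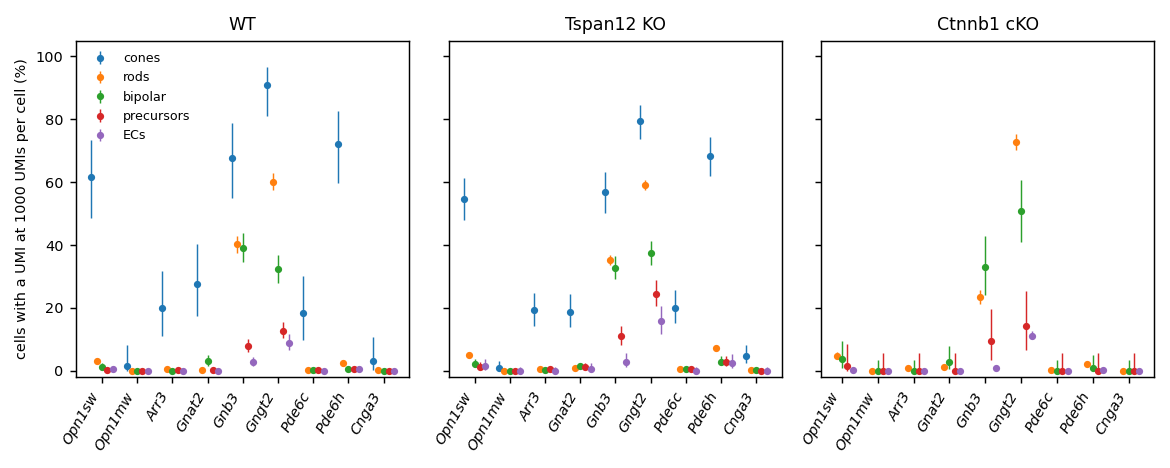
Share of cells with at least 1 UMI of each member (percent) after thinning to 1000 UMIs, by class and library, with exact Clopper-Pearson intervals. The 4 *Ctnnb1* cKO cones are not drawn. *Gnb3* and *Gngt2* are found in 20 to 80% of rods and bipolar cells, while the other members are found in under 8% of them.

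For the transducin subunits the picture was graded. *Gngt2* was found in 90.8% of thinned WT cones (81.0 to 96.5%), 60.2% of rods, 32.3% of bipolar cells, 12.8% of precursors and 8.92% of ECs. *Gnb3* was found in 67.7% of WT cones, 40.2% of rods, 39.1% of bipolar cells, 7.85% of precursors and 2.66% of ECs. *Gnat2* was in 27.7% of WT cones and in 3.06% of WT bipolar cells (1.68 to 5.08%), above the 0.220% of WT rods (0.0453 to 0.640%) and the 0 of 527 WT ECs, which allow up to 0.569%. In *Tspan12* KO, *Gnat2* was in 18.8% of cones, 1.40% of bipolar cells and 0.730% of ECs, the last 2 with overlapping intervals. *Arr3* was in 13 of the 65 thinned WT cones and 19.2% of *Tspan12* KO cones. *Pde6c* and *Pde6h* were in 18.5% and 72.3% of WT cones, and in 20.1% and 68.4% of *Tspan12* KO cones. *Cnga3* gave 3.08% and 4.70% at this depth, against 53.7% and 23.9% of cones without thinning.

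Rods were not uniform. They came from 4 clusters, and the libraries filled them unequally: 804 of the 1484 WT rods lay in cluster 0, 1781 and 1462 of the 4273 *Tspan12* KO rods in clusters 0 and 6, and 1544 of the 1801 *Ctnnb1* cKO rods in cluster 7. Cluster 7 was named from 3 rod markers, the fewest allowed, and had 0 rod markers among its 10 leading genes. Cluster 6 had a median of 26067 UMIs and the bipolar gene *Grm6* among its 10 leading genes beside *Rcvrn*. It held 6230 of the 6655 *Opn1sw* UMIs of *Tspan12* KO rods and 1008 of the 1339 of WT rods. A set of 6 members, *Opn1sw*, *Arr3*, *Gnat2*, *Pde6c*, *Pde6h* and *Cnga3*, was chosen after their values were seen. Cells with UMIs of 4 or more of them numbered 92, 479 and 24 in WT, *Tspan12* KO and *Ctnnb1* cKO. Of these, 57, 175 and 1 were in the cone cluster, and 30, 286 and 11 in cluster 6, where they were 14.4%, 19.6% and 6.08% of cells. Among the rods of clusters 0 and 8 such cells were 0.241%, 0.327% and 0%. These shares were not matched for depth, and the median UMIs of clusters 0 and 8 were 3267 and 1588. The part that droplets holding more than a single cell had in cluster 6 was not tested.

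*Gnb3* and *Gngt2* were followed over the clusters because they were shared by cones, rods and bipolar cells. *Gngt2* in WT was at 1043 CPM in rod cluster 0, 884 in cluster 6, 1804 in cluster 7 and 1767 in cluster 8. It was higher still, at 2903 CPM, in cluster 1, which stayed without a name. That cluster of 1094 WT and 1301 *Tspan12* KO cells was led by *Hbb-bs*, *Gm32629* and *Pcp2* and carried photoreceptor factors, with *Otx2* at 1608, *Crx* at 630, *Nrl* at 853 and *Nr2e3* at 1715 CPM in WT. *Gngt2* in the *Tspan12* KO and *Ctnnb1* cKO cells of cluster 1 was at 2365 and 2734 CPM. A further unnamed cluster, cluster 2, with *Otx2* at 1507, *Crx* at 706 and *Nr2e3* at 1775 CPM, held *Gngt2* at 1903 CPM in WT and 1778 CPM in *Tspan12* KO. *Gnb3* in WT ran from 427 CPM in cluster 6 to 764 CPM in cluster 1, and stood at 517 and 256 CPM in the 2 bipolar clusters. Both genes were thus present in cells with photoreceptor factors that were not called cones, in each library that filled those clusters.

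**Figure D3:**
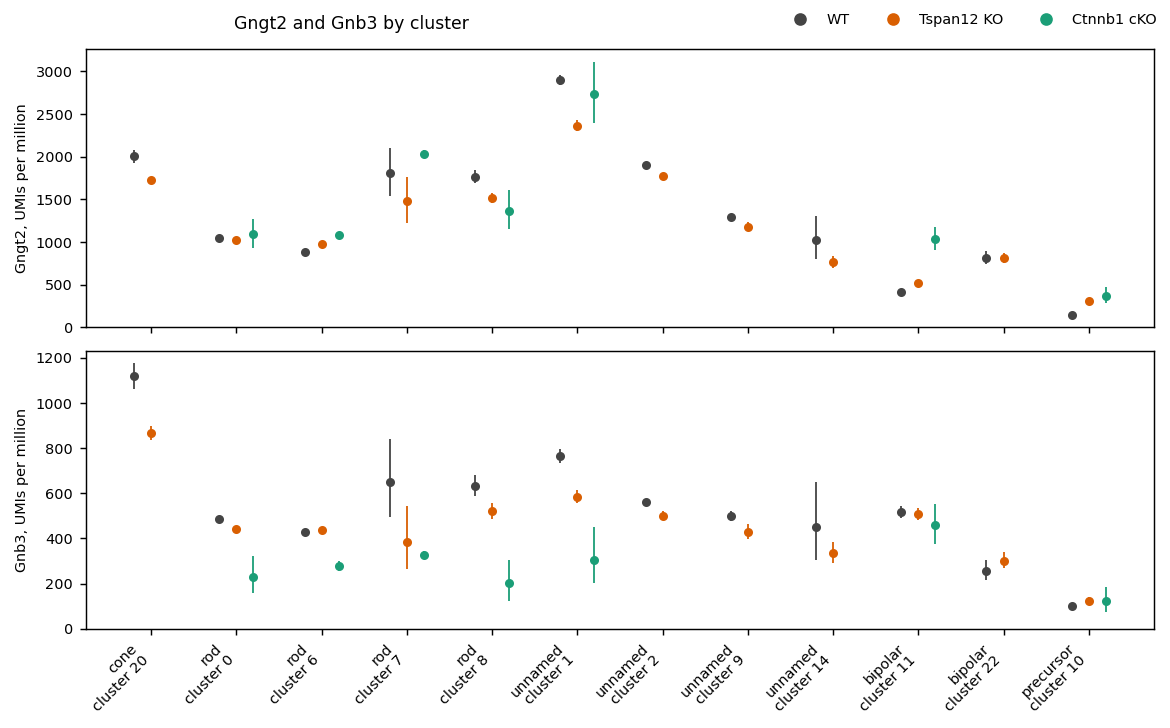
Level of *Gngt2* and *Gnb3* (CPM) in the cone, rod, bipolar, precursor and unnamed clusters, with 1 point per library of at least 20 cells and exact Poisson intervals. Among the WT points, *Gngt2* is highest in cluster 1, at 2903 CPM, and *Gnb3* in the cone cluster, at 1118 CPM.

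The quotient of *Gngt2* to *Gnb3* UMIs was not the same in every class. In WT it was 1.79 in cones, 2.17 in rods, 1.01 in bipolar cells, 1.39 in precursors and 4.22 in ECs. In *Tspan12* KO it was 1.99, 2.28, 1.33, 2.55 and 4.53, and in *Ctnnb1* cKO 2.33, 5.45, 2.28, 3.05 and 15.6. The EC quotient stood above that of cones, rods and bipolar cells in all 3 libraries. *Abi3* overlaps *Gngt2* on the opposite strand, and whether strand was used in counting is not given in the sources used here. The same holds for *Calu* and *Opn1sw*, and for *Arhgdib* and *Pde6h*.

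Precursors were marked by *Neurog2*, *Olig2* and *Dll3*. In the 702 WT precursors *Gngt2* stood at 141 and *Gnb3* at 101 CPM, *Opn1sw* at 6.29, *Pde6h* at 5.53, *Gnat2* at 2.26, *Arr3* at 1.76 and *Pde6c* at 1.01 CPM. *Cnga3* and *Opn1mw* had 0 UMIs in the precursors of all 3 libraries. In WT, precursors were below bipolar cells for *Gnat2*, *Gnb3* and *Gngt2* without overlap, while for *Opn1sw*, *Arr3*, *Pde6c* and *Pde6h* the intervals of these classes overlapped. WT levels of *Opn1sw* and *Pde6h* in ECs were 3.92 and 3.85 CPM, with intervals that overlapped those of the precursors.

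*Tspan12* KO cones were set against WT cones to see how the cone set stood without this co-receptor of Norrin signaling, which acts in endothelium. All 8 members with at least 50 UMIs were lower in the *Tspan12* KO library, none of them past 2-fold with cones taken from the joint clustering. *Gnat2* differed the most, with a log2 ratio of -0.92 (-1.14 to -0.70), followed by *Cnga3* at -0.85 (-1.39 to -0.31) and *Opn1sw* at -0.46 (-0.55 to -0.37). With each library clustered alone *Gnat2* was past 2-fold, at -1.19, and by the marker gate *Cnga3* was, at -1.08, where it differed more than *Gnat2*, at -0.91. *Gnb3* was at -0.37 (-0.46 to -0.28), *Arr3* at -0.31 (-0.52 to -0.09) and *Gngt2* at -0.22 (-0.28 to -0.15). *Pde6c*, at -0.19 (-0.43 to 0.06), and *Pde6h*, at -0.08 (-0.15 to -0.01), lay close to 0. *Opn1mw* had too few UMIs to place, with an interval from -2.73 to 1.47. The 9 members together were at 6534 CPM in WT and 5423 CPM in *Tspan12* KO cones, a log2 ratio of -0.27 (-0.31 to -0.23). The median of the 8 members was -0.34, where the median of all 9565 genes with at least 50 UMIs was -0.00. Of those genes 49.8% were above 0, 1.42% were past 2-fold higher and 1.2% past 2-fold lower.

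**Figure D4:**
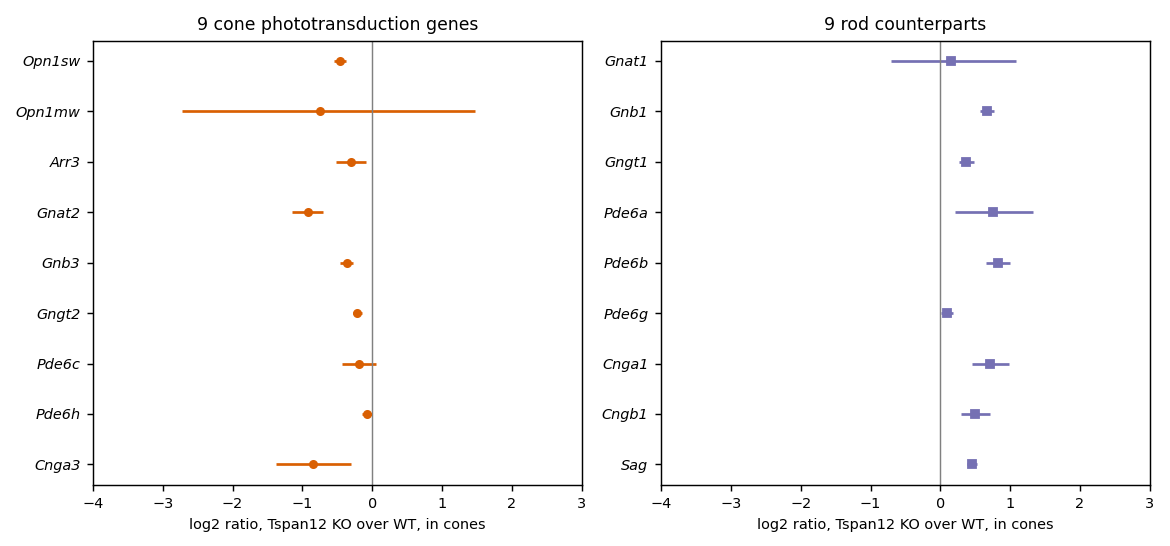
Log2 ratio of *Tspan12* KO to WT cones for the 9 members (left) and 9 rod counterparts (right), with exact conditional binomial intervals and a line at 0. The 8 members with at least 50 UMIs lie below 0 and the 9 rod counterparts above it.

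The rod counterparts went the other way in the same cells. All 9 were above 0 in *Tspan12* KO cones, with a median of 0.50: *Pde6b* (rod phosphodiesterase) at 0.83, *Pde6a* at 0.75, *Cnga1* (rod channel) at 0.71, *Gnb1* at 0.66, *Cngb1* at 0.50, *Sag* (rod arrestin) at 0.45, *Gngt1* at 0.37, *Gnat1* at 0.15 and *Pde6g* at 0.10. None of the 9 passed 2-fold, and 49.8% of all genes were above 0. Their summed level was 4586 CPM in WT and 6205 CPM in *Tspan12* KO cones, and 6093 CPM in the 4 *Ctnnb1* cKO cones. Of the 14 other cone or shared phototransduction genes, 9 were above and 5 below 0, with a median of 0.13. *Cngb3* (the other subunit of the cone channel) was at -0.49, *Slc24a2* (the cone sodium, calcium and potassium exchanger) at -0.41 and *Guca1a* (an activator of guanylate cyclase) at -0.38, while *Pdc* (phosducin) was at 0.39 and *Rgs9bp* (an anchor of a regulator of transducin) at 0.89. Among 13 photoreceptor fate factors, 4 were above and 9 below 0, with a median of -0.13, and *Onecut1* alone was past 2-fold, at -1.16. *Thrb* and *Rxrg*, nuclear receptors of cone fate, were at 0.02 and -0.05.

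Cone depth and other cells' transcripts moved with this comparison. The median UMIs of *Tspan12* KO cones were lower, and so were EC transcripts in them: of the 8 EC markers, 7 were below 0, with *Cldn5* at 49.7 CPM in WT and 8.29 CPM in *Tspan12* KO cones, and *Kdr* was above it. Among cones of at most 20000 UMIs, 42 in WT and 201 in *Tspan12* KO, the members were at 10785 and 8453 CPM together and the rod counterparts at 5342 and 6048 CPM, in the same directions. The part of rod transcripts and of depth in the member ratios was not tested.

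In rods the members did not move as a group in *Tspan12* KO. *Pde6h* stood at 71.7, 182 and 41.8 CPM in rods of WT, *Tspan12* KO and *Ctnnb1* cKO, and its log2 ratio of 1.34 (1.26 to 1.43) in *Tspan12* KO was past 2-fold, as were 5.98% of 15779 genes. *Opn1sw* stood at 74.1, 103 and 87.0 CPM, *Arr3* at 10.7, 14.1 and 13.8 CPM, *Gnat2* at 10.9, 14.7 and 15.3 CPM, *Pde6c* at 8.80, 10.5 and 6.16 CPM and *Cnga3* at 2.32, 2.11 and 0.751 CPM. Of the 8 members with at least 50 UMIs, 5 were above and 3 below 0 in *Tspan12* KO, with a median of 0.32 beside -0.05 for all genes. Of all genes, 45.2% were above 0. *Gnb3* and *Gngt2* were within 0.10 of 0, at -0.08 and -0.01. Scaling by trimmed means (TMM) moved every rod ratio by 0.11 and put *Gnb3* at 0.03 and *Gngt2* at 0.10. The rod counterparts were 4 above and 5 below, with a median of -0.04, the other phototransduction genes 8 above and 6 below, with a median of 0.03, and the fate factors 3 above and 10 below, with a median of -0.27 and *Samd7* past 2-fold lower.

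Within rod clusters these differences were uneven. *Opn1sw* in *Tspan12* KO against WT was at -0.34 (-0.58 to -0.11) in cluster 0, 0.12 (0.02 to 0.22) in cluster 6, 0.84 (-0.77 to 2.58) in cluster 7 and 0.67 (0.14 to 1.21) in cluster 8. Without cluster 6 the rods gave -0.13 for *Opn1sw*, which was also below 0 without doublet removal (-0.31), with a stricter cell filter (-0.16) and with each library clustered alone (-0.62). Its direction in rods therefore depended on which cells were counted. *Arr3*, *Gnat2* and *Pde6c*, at 0.40, 0.43 and 0.25 as reported, were at -0.18, -0.40 and -0.14 with the stricter filter. That filter gave no cone cluster, and rod clusters under it had *Guca1a* among their leading genes, so its rods may include cones. Without doublet removal a cluster with a median of 21141 UMIs stayed unnamed, so the rods of that setting left it out. *Pde6h* was at 1.54 (1.26 to 1.83), 0.78 (0.70 to 0.87), -1.40 (-3.03 to 0.01) and 2.58 (1.85 to 3.39) in clusters 0, 6, 7 and 8, and at 1.58 in rods without cluster 6. Over the alternatives its ratio in rods ran from 0.44 with the stricter filter to 2.01 without doublet removal. Cluster 7, with 6 and 17 UMIs of *Pde6h* from these libraries, was the exception.

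In bipolar cells of *Tspan12* KO, *Pde6h* was at 5.66 CPM in WT and 40.8 CPM in *Tspan12* KO (2.85, interval 2.15 to 3.62) and *Opn1sw* at 6.25 and 23.5 CPM (1.91, interval 1.20 to 2.68). Without doublet removal *Opn1sw* was no longer past 2-fold, at 0.36 (0.02 to 0.70), and *Pde6h* was at 1.97. As reported, these were 2 of the 5 members with at least 50 UMIs, and 2.96% of 10309 genes were past 2-fold. *Gnat2* went the other way, at -0.82 (-1.31 to -0.33), with 29.5 and 16.7 CPM, while *Gnb3* was at -0.08 and *Gngt2* at 0.33. Rod genes were also higher in these cells: 6 of 7 rod counterparts tested were past 2-fold higher and the summed level of all 9 was 444 CPM in WT and 1057 CPM in *Tspan12* KO. The same was true of 7 of 10 other phototransduction genes, among them *Guca1a*, *Rcvrn* and *Pdc*, and of the fate factors *Rxrg* and *Nrl*.

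In precursors of *Tspan12* KO, *Gngt2* was at 310 CPM against 141 CPM in WT (1.14, interval 0.97 to 1.32), *Opn1sw* at 16.0 against 6.29 CPM (1.35, interval 0.51 to 2.18) and *Pde6h* at 24.5 against 5.53 CPM (2.15, interval 1.38 to 2.96). Without doublet removal *Gngt2* was at 0.44, and with the stricter filter *Opn1sw* was at 0.70 (-0.29 to 1.66), neither past 2-fold. As reported, they were 3 of the 4 members tested, with *Gnb3* at 0.26, where 2.13% of 9884 genes were past 2-fold. The rod counterparts had 5 of 6 tested past 2-fold higher, with summed levels of 386 and 804 CPM. Of the fate factors, *Thrb*, *Nrl* and *Nr2e3* were past 2-fold higher.

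Free RNA was followed beside these values, since the *Tspan12* KO library held more cones and rods. In ECs of *Tspan12* KO, *Pde6h* was at 15.8 CPM against 3.85 CPM in WT (2.04, interval 1.57 to 2.52) and *Opn1sw* at 7.05 against 3.92 CPM (0.85, interval 0.26 to 1.42), and the 9 rod counterparts summed to 803 against 556 CPM. In WT that sum was higher in ECs than in bipolar cells, at 444 CPM, or precursors, at 386 CPM. It includes *Gnb1* and is not read as a measure of free RNA. Over the 9 classes other than cones with at least 20 cells in both libraries, *Pde6h* and *Opn1sw* were higher in *Tspan12* KO in 9 of 9, *Arr3*, *Gngt2* and *Pde6c* in 8, and *Gnat2* and *Gnb3* in 7. *Cnga3* was higher in 4 and lower in 3, and *Opn1mw* was higher in 2. Rods and bipolar cells, which carry *Gngt2* and *Gnb3*, are among these classes. The log2 ratio of *Pde6h* over these classes ran from 1.30 to 3.76, and that of *Opn1sw* from 0.39 to 1.97. The higher levels of *Pde6h* and *Opn1sw* outside cones were therefore shared by classes that should lack these 2 genes, such as ECs. The part of free RNA in the bipolar, precursor and rod values was not tested. With the EC level of the same library subtracted, *Pde6h* was at 1.29 and *Opn1sw* at 0.44 in rods. In WT bipolar cells and precursors neither gene stood above its EC level beyond counting error, so no subtracted ratio is given there. The quotient of *Pde6h* to *Opn1sw* UMIs in cones, rods, bipolar cells and ECs was 1.43, 0.968, 0.905 and 0.984 in WT, and 1.87, 1.77, 1.74 and 2.24 in *Tspan12* KO.

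**Figure D5:**
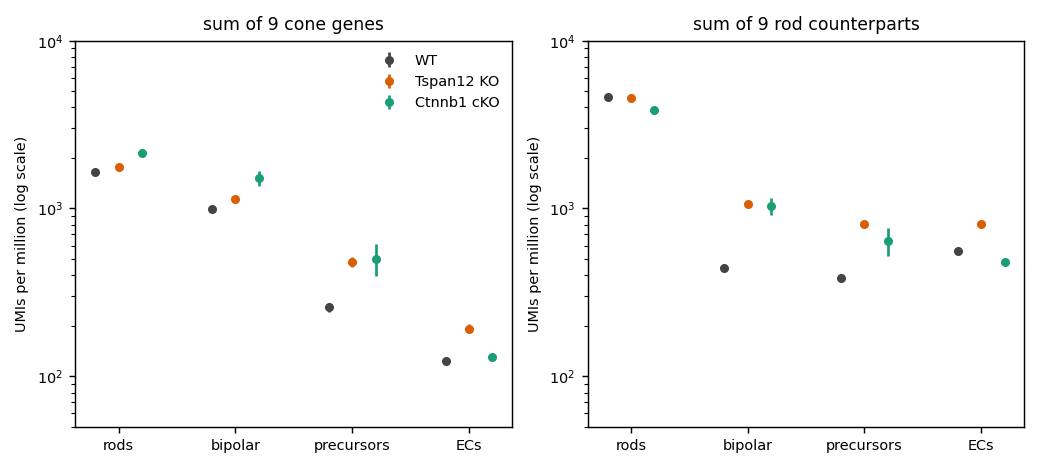
Summed level (CPM) of the 9 members and of the 9 rod counterparts (log axes) in rods, bipolar cells, precursors and ECs, with 1 point per library and exact Poisson intervals. In bipolar cells and precursors both sums are lower in WT than in the knockout libraries.

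For *Ctnnb1* cKO the cones were too few for a ratio, and rods, bipolar cells and precursors were set against WT. In rods *Gngt2* was at 1662 CPM against 1011 CPM (0.72, interval 0.68 to 0.75) and *Gnb3* at 305 against 466 CPM (-0.61, interval -0.68 to -0.54), in opposite directions as reported. *Pde6h* was at -0.78 (-0.97 to -0.59), *Pde6c* at -0.51 (-1.05 to -0.01), *Opn1sw* at 0.23 (0.09 to 0.37), *Arr3* at 0.36 (-0.01 to 0.73) and *Gnat2* at 0.49 (0.13 to 0.84). With the stricter cell filter the direction turned for *Gngt2* (-0.18, interval -0.24 to -0.11), *Opn1sw* (-0.85), *Arr3* (-1.09) and *Gnat2* (-0.66), and without doublet removal for *Pde6c* (1.92, interval 0.92 to 2.93) and *Pde6h* (1.31, interval 0.98 to 1.63). As above, rods under the stricter filter may include cones, and those without doublet removal leave out a cluster of high UMIs. *Gnb3* was the 1 of these genes that kept its direction under every alternative run in these rods, at -0.98 with the stricter filter. In ECs *Gnb3* was also lower, at 7.58 against 22.0 CPM, so this direction was not particular to rods. None of the 7 members tested was past 2-fold, where 17.5% of 13542 genes were. Their median was 0.23 beside -0.12 for all genes, of which 42.7% were above 0. The rod counterparts were 2 above and 7 below 0 with a median of -0.46. Of 13 other phototransduction genes 10 were below 0, with *Cngb3*, *Pdc* and *Kcnv2* past 2-fold lower, and of 13 fate factors *Thrb* and *Samd7* were past 2-fold lower.

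Most *Ctnnb1* cKO rods lay in cluster 7, which held 30 WT cells and only just met the rod label. With the stricter cell filter, a cluster that shared the leading genes *Rtkn2* and *AA465934* held 1004 *Ctnnb1* cKO cells and stayed unnamed. Those cells were thus outside the rods under that filter. Within cluster 7 *Gngt2* stood at 2033 CPM in *Ctnnb1* cKO and 1804 CPM in WT, and *Gnb3* at 327 and 650 CPM. Without cluster 7, the rods gave 0.11 for *Gngt2* (0.06 to 0.17) and -0.78 for *Gnb3* (-0.89 to -0.67), and the summed members -0.12 in place of 0.36. The lower *Gnb3* therefore held in the other rod clusters, at 229 against 486 CPM in the 26 *Ctnnb1* cKO cells of cluster 0, 277 against 427 CPM in the 181 of cluster 6 and 201 against 632 CPM in the 50 of cluster 8, while most of the *Gngt2* difference came with cluster 7.

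The 117 bipolar cells of *Ctnnb1* cKO had *Gngt2* at 1005 CPM against 479 CPM in WT (1.07, interval 0.88 to 1.26) and *Gnb3* at 441 against 476 CPM (-0.11, interval -0.39 to 0.16). *Gngt2* was the 1 of 3 members tested that was past 2-fold, as were 18.7% of 8625 genes. *Opn1sw* had 7 UMIs there and 21 in WT. Of the rod counterparts 5 of 6 tested were past 2-fold higher, with summed levels of 1031 against 444 CPM. In the 69 precursors *Gngt2* was at 370 against 141 CPM (1.40, from 64 and 559 UMIs) and *Gnb3* at 121 against 101 CPM (0.26, interval -0.45 to 0.89). There *Gngt2* was 1 of 2 members tested, where 20% of 8959 genes were past 2-fold, and TMM scaling moved all ratios by -0.11. Without doublet removal *Gngt2* was at 0.61 in bipolar cells and 0.47 in precursors, and *Gnb3* in precursors was at -0.999. With so many genes past 2-fold, a single member past it is read as no more than background. Over 10 classes other than cones, *Gngt2* was higher in *Ctnnb1* cKO in 9, ECs included (118 against 92.8 CPM), while *Opn1sw* was higher in 5 and lower in 4. *Gnb3* was higher in 4 and lower in 6, with ECs and microglia among the lower.

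The genes whose levels over 31 class and library profiles were most like the mean of the members were *Krt18* (Pearson r = 0.968), *Gm32884* (0.961), *Aipl1* (0.955), *A930003A15Rik* (0.953), *Gm44532* (0.951), *Gulo* (0.948), *Pgc* (0.939), *Syndig1l* (0.939), *Moxd1* (0.936) and *Gm4792* (0.928), out of 9569 genes. The profiles share libraries and depth, so r is a description. *Aipl1*, a chaperone of photoreceptor phosphodiesterase, stood at 304 CPM in WT and 159 CPM in *Tspan12* KO cones, and at 59.6 and 45.03 CPM in rods. *Krt18* stood at 148 and 104 CPM in cones and at 9.41 and 14.3 CPM in rods. Among the members, likeness to the mean of the other 8 was 0.954 for *Opn1sw*, 0.950 for *Arr3*, 0.924 for *Pde6h*, 0.922 for *Pde6c*, 0.920 for *Cnga3*, 0.914 for *Gnat2* and 0.847 for *Opn1mw*. It was lower for *Gnb3*, at 0.757, and *Gngt2*, at 0.709, the subunits that rods and bipolar cells shared.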

How the data were processed

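Retinal cells of 3 genotypes at postnatal day 6 were profiled with a 10x Genomics 3′ kit, 1 library each. The deposited matrices hold raw UMI counts, which the authors made with Cell Ranger (version 8.0.1 in the matrix headers, another in the methods). The labels name GRCm39 and the methods an older build, so no coordinates of the counted genes are given. Other data sets that the study integrated were not used.

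Cells with at least 500 UMIs, 250 genes and at most 15% mitochondrial UMIs were kept. The highest Scrublet scores were removed at 0.8% per 1000 cells, which took out 760, 1656 and 665 cells of WT, *Tspan12* KO and *Ctnnb1* cKO. Its automatic threshold called 0, 0 and 347 cells and was not used. Counts were scaled to 10000 per cell, and 2000 variable genes without the members, 30 principal components and 20 neighbours were clustered with leidenalg version 0.10.2 at resolution 1 (scanpy version 1.11.5, Python version 3.11.15). Fixed markers of 19 classes gave names to 26 of 30 clusters. A name needed 3 or more markers with a log2 fold over other cells of 1 or higher, each detected in 10% of the cluster, a mean marker log2 fold of 0.5 and no class with more markers among the 10 leading genes. A cluster under 33.3% of its library's median UMIs with no such leading marker stayed unnamed. The 4 unnamed clusters held 7131 cells.

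UMIs were summed over a class and divided by their total (CPM). Intervals at 95% were exact Poisson for levels, exact Clopper-Pearson for shares and exact conditional binomial where 2 libraries were set against each other (scipy version 1.17.1), and the floor for a count of 0 was 3 counts. Ratios needed 20 cells in both libraries, and counts past 2-fold used genes with at least 50 UMIs. Thinning served to compare depths, and TMM factors, from R version 4.3.3 with edgeR version 4.0.16, to test the scaling. Likeness was Pearson's r of log2 of CPM plus 5. The code was tested on simulated data.

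The genes named are the members, 3 lists (rod counterparts, other phototransduction genes, fate factors), cell type markers and the 10 most like the members. Further genes named are leading genes of a cluster. An item of the rod list is not reported here and was left out of its counts and sums. Members and lists were chosen with earlier results of these data known. Alternatives added after seeing the data were cones of at most 20000 UMIs, rods without the cluster of high UMIs and rods without the cluster mostly of *Ctnnb1* cKO.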

Additional observations from a re-analysis of the deposited data

Results flagged for a closer look

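Members that stood lower in *Tspan12* KO cones but higher in another class were marked for a closer look, and the difference between classes was not tested. *Opn1sw*, at -0.46 in cones on the log2 scale, was at 0.47 in rods, 1.91 in bipolar cells and 1.35 in precursors. *Pde6h*, at -0.08 in cones, was at 1.34, 2.85 and 2.15 in the same classes. *Arr3*, at -0.31 in cones, was at 0.40 in rods and 2.50 in bipolar cells, the latter from 23 and 4 UMIs. *Gnat2*, at -0.92 in cones, was at 0.43 in rods and 1.47 in precursors. *Gnb3*, at -0.37 in cones, was at 0.26 in precursors, and *Gngt2*, at -0.22 in cones, was at 0.33 in bipolar cells and 1.14 in precursors. As given above, the rod ratios of *Opn1sw*, *Arr3* and *Gnat2* were below 0 with the stricter cell filter, whose rods may include cones. *Opn1sw* in bipolar cells was at 0.36 without doublet removal. Part of these contrasts thus depended on which cells were counted.

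*Gngt2* was also found in neutrophil-like cells, a class outside the comparisons, at 395 CPM (295 to 518) in the 21 WT cells and 1220 CPM (1064 to 1391) in the 97 *Ctnnb1* cKO cells. *Gnb3* had 3 UMIs in each of these.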

How the results depend on the processing

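The summed members stayed lower in *Tspan12* KO than in WT cones under all 8 alternatives that gave cones, with log2 ratios from -0.36 to -0.19 against -0.27 as reported. Values that moved were -0.36 with each library clustered alone, -0.35 in cones of at most 20000 UMIs, -0.19 with TMM scaling and -0.20 as a mean over cells. *Opn1sw*, *Gnat2*, *Gnb3*, *Gngt2*, *Pde6h* and *Cnga3* were below 0 in 8 of 8, and *Arr3* (up to 0.66) and *Pde6c* (up to 0.11) in 7, the exception being the mean over cells. The summed level in WT cones was 6909 CPM without doublet removal, 7203 with libraries clustered alone, 4435 by the marker gate, 10785 in cones of at most 20000 UMIs and 9141 as a mean over cells. In *Tspan12* KO cones it was 5685, 5605, 3593, 8453 and 7934 CPM in the same order, 5500 with the members kept in clustering and 5231 with the EC level subtracted. A stricter filter of 1000 UMIs and 500 genes gave no cone cluster, so its rods may include cones.

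In rods the sign of the summed ratio depended on the processing, which also changed which clusters were called rods. For *Tspan12* KO, 0.09 as reported, it was -0.14 without doublet removal, -0.13 with the stricter filter, -0.20 with the members kept in clustering, -0.36 with libraries alone, -0.051 without the cluster of high UMIs, 0.21 with TMM, 0.041 with the EC level subtracted and -0.12 as a mean over cells. For *Ctnnb1* cKO, 0.36 as reported, it was 0.27, -0.52, 0.027, 0.0023 and 0.53 under the first 5, -0.12 without the cluster mostly of *Ctnnb1* cKO, 0.40 with TMM and 0.54 as a mean over cells. Bipolar values for *Tspan12* KO were 0.13 without doublet removal, 0.76 with libraries alone, 0.12 with the EC level subtracted and 0.052 as a mean over cells, and for *Ctnnb1* cKO 0.31 and 0.80 under the first 2. Precursor values were 0.38, 1.39, 1.10 and 1.08 for *Tspan12* KO in that order, and 0.10, 3.03 and 1.45 for *Ctnnb1* cKO under the first 3. *Opn1sw* in *Ctnnb1* cKO bipolar cells, 2.09 as reported, was -0.056 without doublet removal. The causes were not tested.

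*Opn1sw* was in 81.0% of WT and 69.5% of *Tspan12* KO cones at 2000 UMIs, in 88.1% and 84.8% without thinning, and in 62.1% of *Tspan12* KO cones without doublet removal at 1000 UMIs. With at least 10 and at least 1 UMI, genes past 2-fold in cones were 506 and 670 higher and 627 and 887 lower, in place of 136 and 115. In rods they were 2114 and 2477 for *Tspan12* KO and 4076 and 4669 for *Ctnnb1* cKO, in place of 943 and 2370. Bipolar counts were 1210 and 1947, and 2661 and 3146, in place of 305 and 1609. Precursor counts for *Tspan12* KO were 1089 and 1622 in place of 211, and for *Ctnnb1* cKO 3114 at 1 UMI in place of 1794. No paired analysis was possible because each genotype had 1 library. Depth limits *Opn1mw*, *Cnga3* outside cones and all *Ctnnb1* cKO cone values.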
